A study of Homo sapiens with 5 samples.

Results

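Genes of the unfolded protein response and the integrated stress response were examined in 5 clones derived from TE7 cells, which are a line of human esophageal carcinoma. The members were chosen by symbol, as 45 listed genes of these pathways, with earlier results of these data known. Of the 45, 32 had a named probe set among the 14812 named genes of the array. Of the clones, 2 had been transduced with the control construct pMIRNA1-puro-control and 3 with pMIRNA1-puro-CDH26, which expresses the cadherin CDH26. Every clone was derived from a single cell, grown to confluence and held for 24 h in RPMI medium with 1.8 mM calcium before RNA was taken. There was 1 array for each clone, of the type Affymetrix Gene 2.0 ST. The members fall into 3 sets. The first is the transcription factor ATF4 with its target genes, 11 measured of 14 listed; the second is the cytosolic tRNA synthetases, 12 of 12; the third is the chaperones and regulators of the endoplasmic reticulum (ER), 9 of 19.

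The integrated stress response begins when kinases that sense amino acid shortage, ER stress, viral RNA or heme shortage phosphorylate the translation factor eIF2. General translation slows, while ATF4 is translated more and activates genes for amino acid synthesis, amino acid uptake and tRNA charging. The unfolded protein response has 3 sensors in the ER membrane, PERK, IRE1 and ATF6; PERK acts through eIF2 and ATF4, IRE1 through splicing of the XBP1 transcript, and ATF6 through release of its own cytosolic domain. Because ATF4, ATF6 and XBP1 are controlled after transcription, an array reads these pathways mainly through their target genes.

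Promoters of the members that the results turn on are shown with the binding motifs of these pathways, since 7 of the 10 synthetases with a promoter window, and ASNS, have such a motif in it. Sequences are from RefSeq on GRCh38.p14, whose promoter table holds 41 of the 45 members. Each stretch runs from 120 bases before to 30 bases after the annotated start, and capitals mark the motif, which in NARS1 and CRELD2 lies on the opposite strand. In ASNS they mark the C/EBP-ATF response element, searched as TGATGNAAN, and in the next 4 genes its shorter form TTGCATCA, which overlaps it on the opposite strand. In CRELD2 and XBP1 they mark the ER stress element, searched as CCAAT and CCACG with 9 unspecified bases between, and in LRRC59 the unfolded protein response element TGACGTGG.
ASNS: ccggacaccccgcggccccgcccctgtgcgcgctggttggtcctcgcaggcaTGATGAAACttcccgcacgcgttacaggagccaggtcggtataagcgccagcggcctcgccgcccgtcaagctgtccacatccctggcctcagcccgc
IARS1: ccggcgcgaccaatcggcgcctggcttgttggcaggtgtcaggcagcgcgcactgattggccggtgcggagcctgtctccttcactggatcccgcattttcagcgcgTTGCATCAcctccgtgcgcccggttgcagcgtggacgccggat
MARS1: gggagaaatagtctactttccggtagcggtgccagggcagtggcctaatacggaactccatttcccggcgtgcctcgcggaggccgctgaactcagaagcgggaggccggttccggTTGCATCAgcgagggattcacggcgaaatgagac
NARS1: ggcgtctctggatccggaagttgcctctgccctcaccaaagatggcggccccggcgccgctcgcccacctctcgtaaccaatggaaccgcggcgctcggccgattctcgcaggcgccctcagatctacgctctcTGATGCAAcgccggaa
TARS1: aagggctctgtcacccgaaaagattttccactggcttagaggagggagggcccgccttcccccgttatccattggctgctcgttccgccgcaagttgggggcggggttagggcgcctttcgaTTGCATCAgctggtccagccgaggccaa
CRELD2: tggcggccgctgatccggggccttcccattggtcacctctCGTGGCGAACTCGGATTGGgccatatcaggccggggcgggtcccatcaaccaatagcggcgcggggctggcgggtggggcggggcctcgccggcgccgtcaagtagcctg
XBP1: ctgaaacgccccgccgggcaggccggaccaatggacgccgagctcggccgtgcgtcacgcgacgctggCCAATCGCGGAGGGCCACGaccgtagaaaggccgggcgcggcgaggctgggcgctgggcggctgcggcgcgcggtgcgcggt
LRRC59: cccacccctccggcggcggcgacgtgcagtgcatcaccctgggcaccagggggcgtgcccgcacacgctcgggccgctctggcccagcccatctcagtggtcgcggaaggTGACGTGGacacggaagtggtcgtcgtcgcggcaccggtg

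The ASNS stretch lies at chr7:97872379-97872528 on the minus strand, that of IARS1 at chr9:92293668-92293817 (minus) and that of MARS1 at chr12:57487948-57488097 (plus). NARS1 is at chr18:57621807-57621956 (minus) and TARS1 at chr5:33440845-33440994 (plus). CRELD2 is at chr22:49918514-49918663 (plus), XBP1 at chr22:28800540-28800689 (minus) and LRRC59 at chr17:50397494-50397643 (minus). All motifs were searched on both strands of windows of 300 bases, from 250 before to 50 after the start. TTGCATCA was present for 6 of the 10 synthetases with a window, AARS1, CARS1, IARS1, MARS1, NARS1 and TARS1, against 1.08% of all 27305 genes with one. The longer TGATGNAAN added GARS1, for 7 of 10, against 4.45% of all genes; among the measured ATF4 set it was found in ASNS and ATF3. The ER stress element was present for 6 of 18 genes of the ER set and in 0.0916% of all genes; 3 of the 6, CALR, CRELD2 and XBP1, were measured. The element TGACGTGG was found for LRRC59, HYOU1 and CARS1, against 0.927% of all genes. A match describes these letters only and is not a measured binding site.

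Values in the deposited table are logarithms, taken as log2, centred for each probe set on the mean of the 2 control clones. They give differences between clones and no level, so a gene near the background of the array cannot be told from an expressed one, and the markers of the cell type cannot be read as present or absent. Of the markers listed, 4 of 5 epithelial, 1 of 4 fibroblast and 0 of 2 leukocyte genes had a named probe set. The transcript of the construct, CDH26, was higher by 2.84 ± 0.13 (SE) in the clones that carried it. Over all genes, 183 differed by at least 1 log2 unit between the control clones and 9 between CDH26 clones 1 and 2. CDH26 clone 3 differed in 75 and 62 genes from CDH26 clones 1 and 2 and in 33 from control clone 1, so by this count it was nearer to that control than to its own group. Ties between arrays were common, and 46.3% of genes (untied genes) had 5 distinct values; among the members it was 21 of 32. Replicates are different clones, which makes differences from clone to clone a part of the error, and the number of arrays limits every estimate. In extracts of whole cultures, fewer cells with a transcript and less of it per cell cannot be told apart.

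Most members had lower values in the CDH26 clones, by small amounts. Because the members were chosen with earlier results known, the shares of all genes set beside them are description and no test. The mean was lower in 26 of the 32, against 49.5% of all genes, and the median log2 difference was −0.16, against 0 over all genes. The lowest was TRIB3 at −0.55 and the highest ATF6 at 0.35. No member passed an adjusted p of 0.05 (limma, Benjamini-Hochberg over all 14812 genes; the members' adjusted p ran from 0.583 to 0.999), nor did any other gene (0 called, 0%, against 1113 genes at an unadjusted p of 0.05). With 2 and 3 clones the smallest p of an exact permutation test is 0.1. At an unadjusted p of 0.05 in limma, 8 members were lower and 0 higher: ASNS, PSPH, IARS1, MARS1, NARS1, TARS1, CRELD2 and LRRC59. Over all genes 4.0% (593 genes) were lower and 3.51% higher at that threshold, 7.51% in either direction. For untied genes the shares came to 8.17% and 6.96%, and 7 of the 21 untied members were lower.

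In 13 of the 32 members all 3 CDH26 clones were lower than either control, against 9.93% of all genes, and above both in 2, against 8.98%. Of the 21 untied members 10 were below, against 18.6% of untied genes, and 2 above, against 16.4%. Relative to control clone 2 alone, all 3 CDH26 clones were lower in 20 members, against 27.0% of all genes, and relative to control clone 1 alone in 19, against 25.7%. The array of CDH26 clone 1 was the lowest of the 5 in 10 members, that of control clone 2 the highest in 14 and that of control clone 1 the highest in 12; over all genes these arrays held that place in 21.2%, 22.6% and 20.2%.

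**Figure D1:**
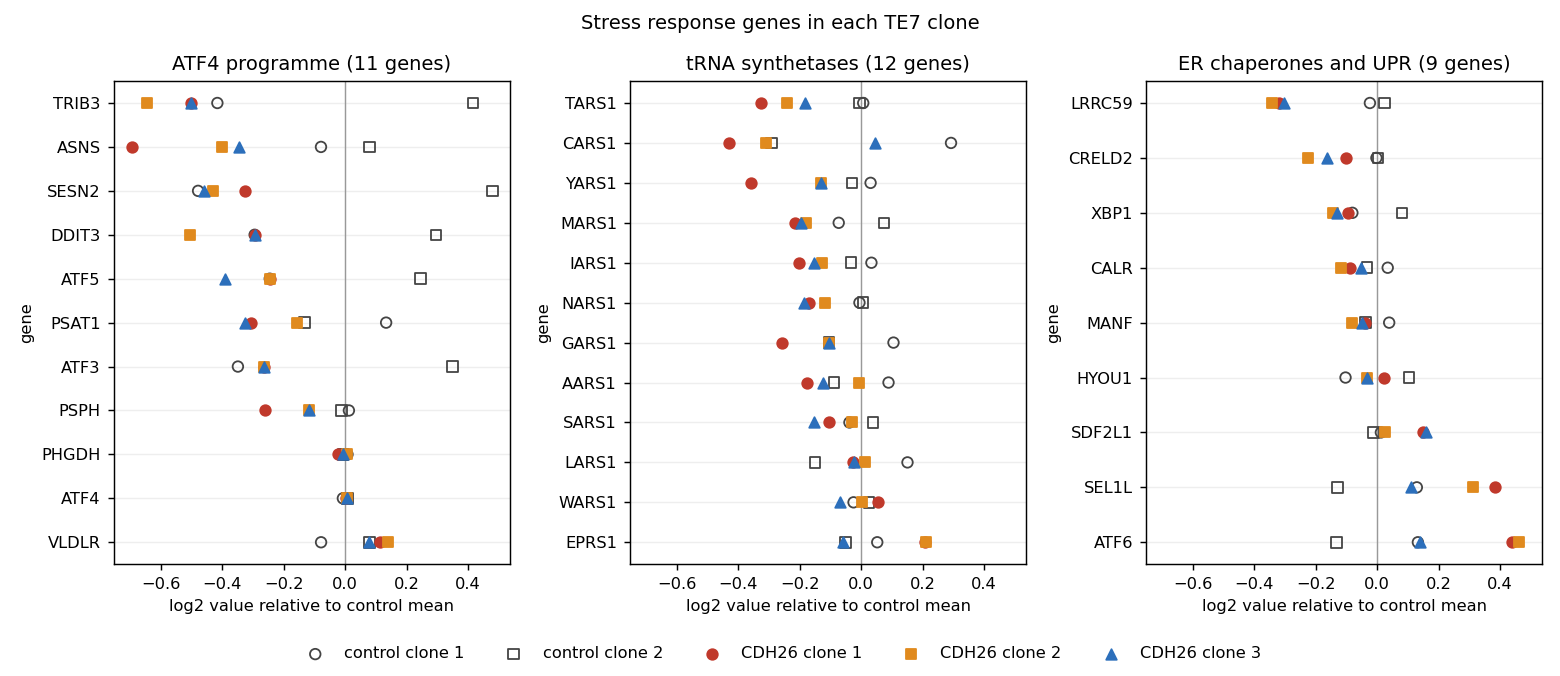
Log2 value of each of the 32 measured members in each clone, with 0 at the control mean, in 3 panels by gene set; open symbols are control clones and filled symbols CDH26 clones. In TRIB3, SESN2, DDIT3, ATF5 and ATF3 control clone 2 stands far to the right of the other 4 clones. In ASNS, TARS1, NARS1, IARS1 and LRRC59, and also in TRIB3, both control clones lie to the right of all 3 CDH26 clones.

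The ATF4 set had a median difference of −0.26, and 9 of its 11 genes were lower on average with CDH26 (49.5% of all genes). Without control clone 2 that median was −0.049, smaller in size than the −0.18 of the synthetases, and without control clone 1 it was −0.54. Its genes differed in which control clone set them apart. ATF4 itself was level: it was at −0.0076 and 0.0076 in control clones 1 and 2 and at 0.0041, 0.0053 and 0.0053 in CDH26 clones 1, 2 and 3. The difference was 0.0049 ± 0.018 (SE; 95% interval −0.05 to 0.06), so the transcript differed by less than the gap between the control clones. CEBPB, CEBPG and CHAC1 had no named probe set and were not analysed here.

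Transcription factors and regulators downstream of ATF4 were high in control clone 2 alone. TRIB3, a pseudokinase induced by ATF4 that feeds back on it, was at −0.42 and 0.42 in control clones 1 and 2 and at −0.50, −0.65 and −0.50 in the CDH26 clones. DDIT3, which encodes the stress transcription factor CHOP, was at −0.29 and 0.29 in the controls and at −0.29, −0.51 and −0.29 with CDH26. SESN2, a leucine-sensing inhibitor of mTORC1, was at −0.48 and 0.48 in the controls and at −0.33, −0.43 and −0.46 with CDH26. In all 3 genes control clone 2 was far above the other 4 clones, which lay close together. For TRIB3 control clone 1 was also above every CDH26 clone, so the groups did not overlap. For DDIT3 control clone 1 was tied with CDH26 clones 1 and 3.

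ATF3, a stress-induced repressor and activator, was at −0.35 and 0.35 in the control clones and at −0.26 in each CDH26 clone, a value shared by all 3 arrays. ATF5, a factor related to ATF4 that is likewise controlled by translation, was at −0.25 and 0.25 in the controls and at −0.25, −0.25 and −0.39 with CDH26. In both genes control clone 2 stood apart; control clone 1 was the lowest of the 5 in ATF3 and was tied with CDH26 clones 1 and 2 in ATF5. The differences from the mean of both controls were −0.55 ± 0.28 (SE) for TRIB3, −0.41 ± 0.32 for SESN2, −0.37 ± 0.21 for DDIT3, −0.29 ± 0.17 for ATF5 and −0.26 ± 0.23 for ATF3. Unadjusted p values in limma ran from 0.121 for TRIB3 to 0.317 for ATF3, so none was under 0.05. In all 5 genes the gap between the control clones was larger than the difference.

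Against control clone 2 alone the CDH26 mean differed by between −0.97 and −0.54 in these 5 genes, while against control clone 1 alone it differed by between −0.13 and 0.09. TRIB3 differed by −0.97 from control clone 2 and by −0.13 from control clone 1, and SESN2 by −0.88 and 0.07. The sign of ATF3 and SESN2 therefore depended on the control clone, and both had a positive difference without control clone 2. Without control clone 1, where the spread comes from the CDH26 clones alone and the single control is taken to share it, ATF3 was the 1 member past the adjusted threshold, beside 0.675% of all genes lower and 0.581% higher; that call rests on the tied CDH26 values.

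**Figure D2:**
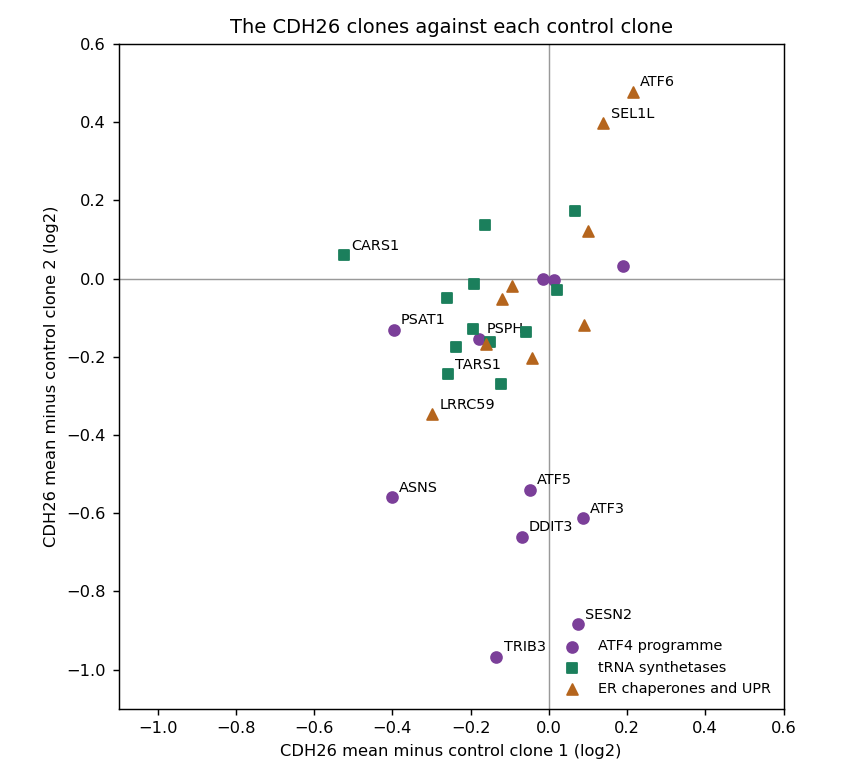
Mean of the 3 CDH26 clones minus control clone 1 (horizontal, log2) against the same mean minus control clone 2 (vertical, log2), 1 point per measured member, with colour and shape by gene set. TRIB3, SESN2, DDIT3, ATF3 and ATF5 lie far below 0 on the vertical axis and between −0.13 and 0.09 on the horizontal one. Of these, TRIB3, DDIT3 and ATF5 are below 0 on both axes, as are ASNS, TARS1 and LRRC59.

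Of the 4 enzymes of amino acid synthesis in the ATF4 set, ASNS, PSAT1 and PSPH were below both controls in every CDH26 clone and PHGDH overlapped them. ASNS, the asparagine synthetase and a standard readout of ATF4, was at −0.08 and 0.08 in control clones 1 and 2 and at −0.70, −0.40 and −0.34 in CDH26 clones 1, 2 and 3. The groups did not overlap, and CDH26 clone 1 was the lowest. The difference was −0.48 ± 0.13 (SE; 95% interval −0.86 to −0.10), which is 1.39-fold lower, with an unadjusted p of 0.0248 and an adjusted p of 0.626 in limma.

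Serine is made from a glycolytic intermediate in 3 steps, by PHGDH, PSAT1 and PSPH. PSAT1, the aminotransferase, was at 0.13 and −0.13 in the control clones and at −0.31, −0.16 and −0.33 with CDH26, a difference of −0.26 ± 0.11 (SE; unadjusted p = 0.0724 in limma). PSPH, the phosphatase of the last step, was at 0.012 and −0.012 in the controls and at −0.26, −0.12 and −0.12 with CDH26, a difference of −0.17 ± 0.06 (unadjusted p = 0.0458 in limma). For both genes every CDH26 clone lay below both controls, although in PSAT1 CDH26 clone 2 was close to control clone 2. PHGDH, the first enzyme, was between −0.024 and 0.0074 on all 5 arrays and its difference was −0.0088 ± 0.020. VLDLR, a lipoprotein receptor induced through PERK and ATF4, had the opposite sign, at −0.08 and 0.08 in the controls and at 0.11, 0.14 and 0.08 with CDH26; CDH26 clone 3 was tied with control clone 2.

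tRNA synthetases attach amino acids to their tRNAs, and many of the cytosolic ones are ATF4 targets. Of the 12 measured, 11 were lower on average with CDH26, against 49.5% of all genes, with a median difference of −0.16. In 5 every CDH26 clone lay below both controls, against 9.93% of all genes and 18.6% of untied genes. The median of the set was 0.03 and −0.03 in control clones 1 and 2 and −0.19, −0.11 and −0.13 in CDH26 clones 1, 2 and 3, so no CDH26 clone reached the level of a control. Against control clone 1 alone the median difference was −0.18, and against control clone 2 alone −0.09. The 4 synthetases with an unadjusted p under 0.05 in limma were all lower, against 4.0% of all genes and 8.17% of untied genes. All 4 have TTGCATCA in the promoter window shown above. AARS1 and CARS1 have it too without such a p, and the relation has no test.

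TARS1, the threonyl-tRNA synthetase, was at 0.0064 and −0.0064 in the control clones and at −0.33, −0.24 and −0.18 in CDH26 clones 1, 2 and 3. Its difference of −0.25 ± 0.05 (SE; 95% interval −0.39 to −0.11) is 1.19-fold lower, with an unadjusted p of 0.00828 in limma. NARS1, the asparaginyl-tRNA synthetase, was at −0.0059 and 0.0059 in the controls and at −0.17, −0.12 and −0.19 with CDH26. In both genes the control clones were nearly equal and the CDH26 clones lay well below them. NARS1 differed by −0.16 ± 0.03 (95% interval −0.24 to −0.07; unadjusted p = 0.00649 in limma).

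IARS1, which charges isoleucine, was at 0.03 and −0.03 in the control clones and at −0.20, −0.13 and −0.15 with CDH26, a difference of −0.16 ± 0.04 (SE; unadjusted p = 0.0129 in limma). MARS1, which charges methionine, was at −0.07 and 0.07 in the controls and at −0.21, −0.18 and −0.20 with CDH26, a difference of −0.20 ± 0.05 (unadjusted p = 0.0209 in limma). The 3 CDH26 clones agreed more closely in MARS1 than the 2 control clones did, with a range of 0.04 against a gap of 0.15. YARS1, the tyrosyl-tRNA synthetase, was at 0.03 and −0.03 in the controls and at −0.36, −0.13 and −0.13 with CDH26, without overlap, and its difference of −0.21 ± 0.09 rested most on clone 1 (−0.13 without it).

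The remaining 7 synthetases overlapped between groups. CARS1, the cysteinyl-tRNA synthetase, was at 0.29 and −0.29 in the control clones and at −0.43, −0.31 and 0.04 with CDH26, so that CDH26 clone 3 lay between the controls. The gap between the control clones, 0.58, exceeded the difference of −0.23 ± 0.25 (SE). GARS1 differed by −0.16 ± 0.09, and CDH26 clones 2 and 3 were tied with control clone 2 at −0.10. AARS1 and SARS1, which charge alanine and serine, both differed by −0.10, and in each CDH26 clone 2 lay between the controls. LARS1, for leucine, had a difference of −0.013 ± 0.10 between controls that were 0.30 apart.

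WARS1, the tryptophanyl-tRNA synthetase and also an interferon-induced gene, was between −0.07 and 0.06 on all arrays; its value averages 2 probe sets, of which 1 was at 0 on every array. EPRS1, which charges glutamate and proline in 1 protein, was the only synthetase measured with a higher mean, at 0.05 and −0.05 in the controls and at 0.21, 0.21 and −0.06 with CDH26. CDH26 clone 3 was below both controls there, and the difference was 0.12 ± 0.11 (SE).

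**Figure D3:**
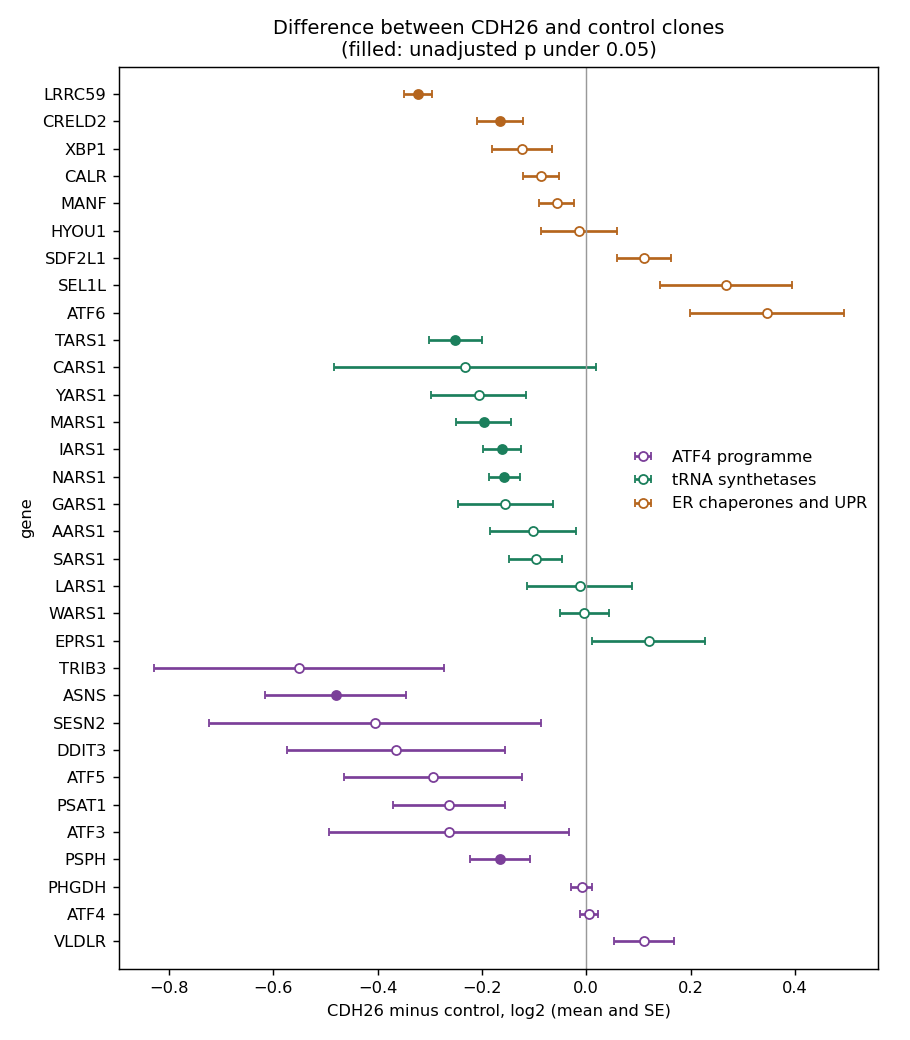
Difference between CDH26 and control clones on the log2 scale for the 32 measured members, with the SE from limma as bars; filled points have an unadjusted p under 0.05 and colours give the gene set. The 8 filled points all lie left of 0, with ASNS at −0.48 the furthest out, and the TRIB3 and SESN2 points have the widest bars.

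The ER set was divided in direction. Its median difference was −0.06, and 6 of 9 genes had a lower mean, against 49.5% of all genes. Every CDH26 clone lay below both controls in LRRC59, CRELD2, XBP1 and CALR and above both in ATF6 and SDF2L1. Over all genes these shares were 9.93% below and 8.98% above. Of the 9 genes, 8 were untied, and among untied genes the shares were 18.6% below and 16.4% above. The main ER chaperones HSPA5 (BiP) and HSP90B1 (GRP94) had no named probe set, nor did PDIA3, PDIA4, PDIA6, DNAJB9, DNAJB11, DNAJC3, HERPUD1 and EDEM1, so the set holds 9 of 19 listed genes and its core is not analysed here.

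LRRC59, a ribosome-binding protein of the ER membrane, had the smallest unadjusted p of any member. It was at −0.02 and 0.02 in control clones 1 and 2 and at −0.32, −0.34 and −0.30 in CDH26 clones 1, 2 and 3. The CDH26 clones lay within 0.04 of each other and far below both controls. Its difference was −0.32 ± 0.03 (SE; 95% interval −0.40 to −0.25), 1.25-fold lower, with an unadjusted p of 0.000315 and an adjusted p of 0.583 in limma. With each CDH26 clone left out in turn, the unadjusted p in limma stayed under 0.05 for LRRC59, NARS1, TARS1 and IARS1. In those fits 1.67% to 5.55% of all genes were lower at that threshold. Leaving out a control clone leaves 1 control, so only sizes are given. Without control clones 1 and 2 in turn, LRRC59 differed by −0.35 and −0.30 and NARS1 by −0.16 and −0.15. TARS1 differed by −0.245 and −0.258 and IARS1 by −0.13 and −0.19. For NARS1 the unadjusted p in limma was 0.0584 with a replicate block and 0.0861 when only untied genes were fitted. The same values were 0.118 and 0.0866 for IARS1, 0.0313 and 0.0258 for TARS1, and 0.0178 and 0.0061 for LRRC59.

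Of the 3 measured genes with the ER stress element in the window, 1 had an unadjusted p under 0.05 in limma. Over all genes 7.51% did in either direction, and of untied genes 8.17% were lower and 6.96% higher. The relation to the element has no test. CRELD2, a secreted ER chaperone induced by ER stress, was at −0.0029 and 0.0029 in the control clones and at −0.10, −0.23 and −0.17 with CDH26, a difference of −0.16 ± 0.04 (SE; unadjusted p = 0.0212 in limma). XBP1, the transcription factor activated by IRE1, was at −0.08 and 0.08 in the controls and at −0.10, −0.14 and −0.13 with CDH26. CALR, the lectin chaperone calreticulin, was at 0.03 and −0.03 in the controls and at −0.09, −0.12 and −0.05 with CDH26. In XBP1 and CALR the groups did not overlap but nearly met, and the differences of −0.12 ± 0.06 and −0.09 ± 0.03 had unadjusted p values of 0.104 and 0.0688 in limma.

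MANF, a secreted protein that maintains ER folding, differed by −0.06 ± 0.03 (SE) and CDH26 clone 1 was tied with control clone 2. HYOU1, a nucleotide exchange factor for BiP, had a mean over 2 probe sets that lay inside the range of the controls in all 3 CDH26 clones. Its difference was −0.014 ± 0.073. The 2 probe sets disagreed, and 1 was at 0.023 in all 3 CDH26 clones, inside the range of its controls. The other was at 0.023, −0.090 and −0.088 in CDH26 clones 1, 2 and 3, with its controls at −0.056 and 0.056. SDF2L1, part of an ER chaperone complex, was at 0.012 and −0.012 in the controls and at 0.15, 0.02 and 0.16 with CDH26, a difference of 0.11 ± 0.05 (unadjusted p = 0.104 in limma).

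Higher values were found for ATF6, one of the ER stress sensors, and for SEL1L, the adaptor of the HRD1 ubiquitin ligase in ER-associated degradation. ATF6 was at 0.13 and −0.13 in the control clones and at 0.44, 0.46 and 0.14 in CDH26 clones 1, 2 and 3. SEL1L was at 0.13 and −0.13 in the controls and at 0.38, 0.31 and 0.11 with CDH26. In both genes CDH26 clones 1 and 2 were high and clone 3 was close to control clone 1, just above it in ATF6 and just below it in SEL1L. The differences of 0.35 ± 0.15 (SE) and 0.27 ± 0.13 had unadjusted p values of 0.0808 and 0.103 in limma.

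Other genes of the pathways were taken from 9 further lists, of which 99 of 183 genes had a named probe set. Of the 99, 10 were lower and 5 higher at an unadjusted p of 0.05 in limma, beside 4.0% and 3.51% of all genes, and 0 passed the adjusted threshold. Their median difference was −0.03. Among the kinases of eIF2, 6 of 16 genes of the list measured, the ER stress kinase PERK (EIF2AK3) was at −0.0066 and 0.0066 in the control clones and at 0.43, 0.43 and 0.14 with CDH26, a difference of 0.33 ± 0.11 (SE; unadjusted p = 0.0437 in limma). The amino acid sensing kinase GCN2 (EIF2AK4) was at 0.02 and −0.02 in the controls and at −0.31, −0.22 and −0.13 with CDH26, a difference of −0.22 ± 0.06 (unadjusted p = 0.0258 in limma). Both kinases were without overlap between groups, in opposite directions, and CDH26 clone 3 was nearest the controls in each.

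Of the list of ER sensors, 9 of 11 genes were measured. ATF6B, the paralog of ATF6, was at 0.18 and −0.18 in the controls and at 0.74, 0.45 and 0.38 with CDH26, a difference of 0.52 ± 0.17 (SE; unadjusted p = 0.041 in limma). ERN1, which encodes IRE1 and was added after its values were seen, differed by −0.09 ± 0.09. ATF6, ATF6B and PERK, which come from different lists, were above both controls in every CDH26 clone, and ERN1 overlapped. The share above both was 8.98% of all genes and 16.4% of untied genes. In the sensor list itself 1 of 9 genes was above both controls and 8 overlapped. The list's median difference was 0.010.

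The list of further ATF4 targets, 16 of 29 measured, had a median of −0.11. At an unadjusted p of 0.05 in limma 2 were lower and 1 higher, against 4.0% and 3.51% of all genes. STC2, a secreted glycoprotein induced by ATF4, was at −0.22 and 0.22 in the control clones and at −0.81, −0.82 and −0.42 with CDH26, a difference of −0.68 ± 0.21 (SE; unadjusted p = 0.0318 in limma). SHMT2, the mitochondrial enzyme that takes carbon from serine, differed by −0.16 ± 0.05 (unadjusted p = 0.039 in limma). DDIT4, an inhibitor of mTORC1 that also responds to hypoxia, had the opposite sign, at 0.13 and −0.13 in the controls and 0.61, 0.56 and 0.27 with CDH26 (difference 0.48 ± 0.15, unadjusted p = 0.0323 in limma). GDF15, a stress-induced secreted factor singled out after its values were seen, was at −0.90 and 0.90 in the controls and at −0.81, −1.13 and −1.09 with CDH26. Like TRIB3 and SESN2 it was high in control clone 2 alone, from which the CDH26 mean differed by −1.91, and control clone 1 lay within the CDH26 range.

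Among the other cytosolic synthetases and their scaffold proteins, 6 of 11 measured, the median was −0.04, differences ran from −0.11 to 0.08 and 0 had an unadjusted p under 0.05 in limma. Mitochondrial synthetases had 0 of 17 genes with a named probe set. The other ER folding factors, 20 of 33 measured, had a median of 0.010. They had 1 gene in each direction at that threshold, against 4.0% of all genes lower and 3.51% higher. These were SELENOK, an ER membrane selenoprotein, at −0.10 ± 0.03 (SE) and ERP29, a relative of the protein disulfide isomerases, at 0.24 ± 0.07. For ER-associated degradation, 13 of 23 measured, the median was −0.05 and DERL2, a membrane component of that pathway, differed by −0.34 ± 0.09 (unadjusted p = 0.025 in limma).

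**Figure D4:**
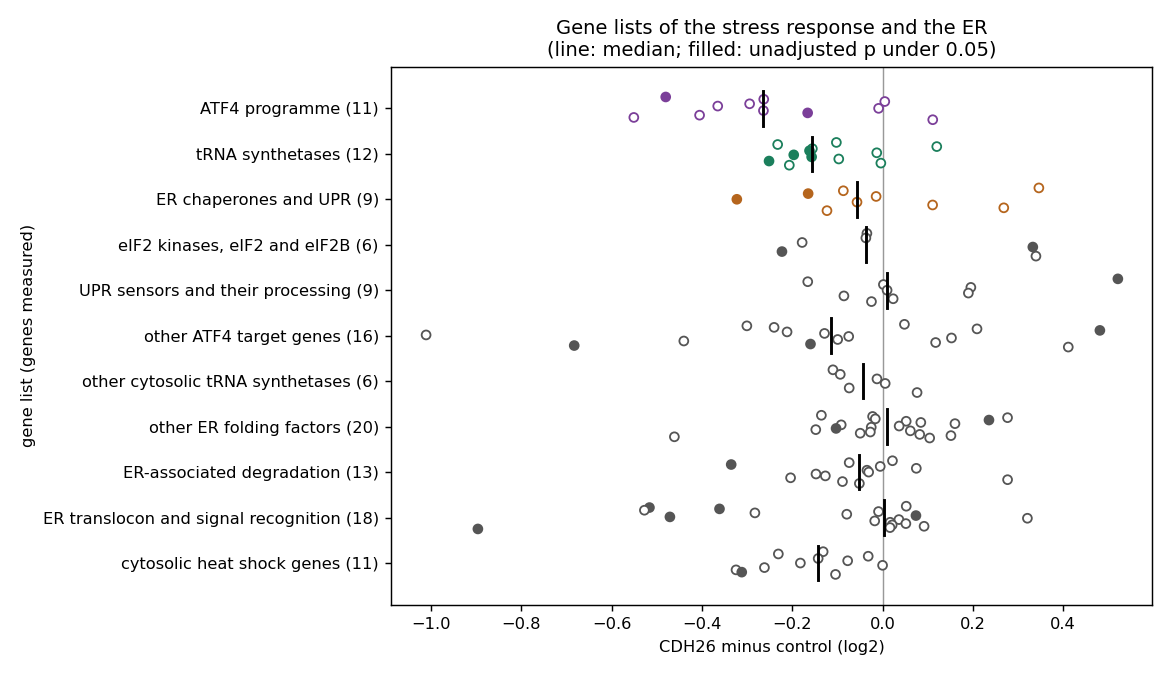
Difference between CDH26 and control clones on the log2 scale for each measured gene, 1 line of points per gene list; the black line is the median of the list and filled points have an unadjusted p under 0.05. The medians of the ATF4 set and of the tRNA synthetases are at −0.26 and −0.16, and those of the other lists lie between −0.14 and 0.010.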

How the data were processed

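RNA from 5 TE7 clones, 2 control and 3 CDH26, was measured on 1 Affymetrix Gene 2.0 ST array each. Per the submitters' processing notes the arrays were processed in Affymetrix Expression Console. No summarisation method, software version or build is given in the sources used here. The authors' deposited table holds log values, taken here as log2. The control columns sum to 0 within 1e-06 in every row, so each probe set was centred on the control mean.

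The array's annotation named 15835 of 44607 probe sets, and all 15835 names matched current RefSeq symbols. Probe sets were averaged per gene. Clones were grouped by their labels and compared over all 14812 genes with limma 3.58.1 in R 4.3.3 (lmFit, eBayes, two-sided, Benjamini-Hochberg), without a brightness filter, which centred values do not allow. The step was tested on simulated data. Values closer than 1e-05 were called tied.

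The members and lists were chosen with earlier results of these data known. Values in every clone were given for members with an unadjusted p under 0.05, for the 4 largest differences of each set and for ATF4, DDIT3, XBP1, ATF6 and HSPA5 (not measured); clone values of other members were added afterwards. Alternatives are listed in the closing section. Genes of further lists were named at an unadjusted p under 0.05, up to 4 a list. Figures were drawn with matplotlib 3.10.9.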

Additional observations from a re-analysis of the deposited data

How the results depend on the processing

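With each of the 5 clones left out in turn, 25 of the 32 members kept their sign. These include the 8 with an unadjusted p under 0.05, whose sign could not turn. In each of the 8, every CDH26 clone lay below both controls. The number at that threshold ran from 6 to 11 without 1 clone (11 without control clone 2, where 6.58% of all genes were lower and 6.25% higher), was 3 of 21, all lower, when only untied genes were fitted (7.54% of those genes were lower and 6.87% higher), and was 3 (ASNS, TARS1 and LRRC59), all lower, with a replicate block (4.64% of all genes lower and 3.32% higher). In the untied and the block fit these shares, taken over both directions, are close to the members'. No label ties clones of the same number, the number did not pair them (correlations of deviations −0.20 and −0.21), and the block changed no adjusted call. Members without overlap, 15 with all clones, ran from 16 to 26 without 1 clone, which leaves fewer values to overlap in every gene; all genes gave 23.4% to 32.1% without a CDH26 clone (16 to 19 members) and 52.9% and 49.5% without control clones 1 and 2 (24 and 26 members). Genes past the adjusted threshold ran from 0 to 186, the latter without control clone 1, and were 1 when only untied genes were fitted. The median of the ATF4 set had its lowest value, −0.54, with control clone 1 left out and its highest, −0.049, with control clone 2 left out, and was −0.41 over its 3 untied members. That of the synthetases ran from −0.18 to −0.090, and that of the ER set from −0.07 to −0.04. If the values are natural logarithms the medians become −0.38, −0.23 and −0.082. Signs turned in 7 members. They did so for ATF4 (−0.0027, against 0.0125 without control clone 2) and CARS1 (0.060, against −0.52) without control clone 1, and for SESN2 (0.074, against −0.88 without control clone 1) without control clone 2; over the 5 fits ATF3 ran from −0.61 to 0.087, LARS1 from −0.16 to 0.14, HYOU1 from −0.12 to 0.089 and WARS1 from −0.033 to 0.028. Weighting arrays moved no median beyond the spread between clones. Centring them and a robust variance with trend could not move one. The array medians were already 0, and the variance setting leaves the differences as they are. Another choice of probe set could change only WARS1 and HYOU1, the members with more than 1, and the medians stayed the same. With the probe set of the largest spread the difference of HYOU1 turned to 0.023 and that of WARS1 was −0.0077. The cause of these shifts was not tested. The block, variance and log base settings do not bear on overlap and have no value there.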

Other observations

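Among genes that carry proteins into the ER, 18 of 24 listed were measured, with a median difference of 0.0037. At an unadjusted p of 0.05 in limma 4 were lower and 1 higher, against 4.0% and 3.51% of all genes. TRAM1, a membrane protein that assists translocating chains, was at −0.10 and 0.10 in the control clones and at −1.22, −0.86 and −0.61 in CDH26 clones 1, 2 and 3, a difference of −0.90 ± 0.21 (SE). SEC11C, a catalytic subunit of the signal peptidase, was at 0.07 and −0.07 in the controls and at −0.55, −0.42 and −0.58 with CDH26, a difference of −0.52 ± 0.07. SPCS2, another subunit of that enzyme, and SEC61A1, the channel of the translocon, differed by −0.47 ± 0.16 and −0.36 ± 0.11, while the subunit SPCS1, added after its values were seen, differed by 0.07 ± 0.02. In all 5 genes the groups did not overlap, and the adjusted p in limma was 0.626 for all 5. Of the 18 genes, 5 were below both controls in every CDH26 clone and 3 above, against 9.93% and 8.98% of all genes. Of the 18, 14 were untied, and among untied genes the shares were 18.6% below and 16.4% above.

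Heat shock genes of the cytosol, 11 of 19 measured, had a median difference of −0.14, and 10 had a lower mean, against 49.5% of all genes. HSPH1, a chaperone of the HSP110 family, was at 0.06 and −0.06 in the control clones and at −0.35, −0.28 and −0.31 with CDH26, a difference of −0.31 ± 0.05 (SE; unadjusted p = 0.00344, adjusted p = 0.626 in limma). It was the only gene of that list with an unadjusted p under 0.05, beside 4.0% of all genes lower and 3.51% higher.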
